A study of Mus musculus with 6 samples.

Results

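The annexins and S100 proteins described here are 10 genes, the annexins Anxa1, Anxa2, Anxa3, Anxa5, Anxa6 and Anxa7 and the S100 genes S100a4, S100a6, S100a10 and S100a11. The rule takes them by gene name and uses no measured value, but the set was drawn up with earlier results of these data known. They were found by their versioned identifiers in GENCODE release M21, which cover all 55450 genes in the count files. Transcripts were measured by bulk RNA-Seq of primary hepatocytes, the main cell of the liver, in 6 libraries. Of these, 3 came from undamaged liver (0 h, without a sham operation) and 3 from liver 48 hours after partial hepatectomy (PHx), the surgical removal of a large part of the liver, after which the remaining hepatocytes divide. All mice were male C57BL/6 on normal diet, 10 to 12 weeks old by the labels, with no transgene or deletion named. The methods of the study name the substrain C57BL/6J and give a somewhat younger age. The libraries of a time point are separate hepatocyte preparations from different mice, made by collagenase perfusion, a method that enriches hepatocytes but does not remove every other liver cell. Each library held from 31419443 to 36346220 counts on genes.

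Annexins are calcium-dependent proteins that bind acidic phospholipids on the inner face of membranes and take part in membrane repair, vesicle traffic and the attachment of the actin cortex. S100 proteins are small EF-hand calcium sensors with no enzymatic activity, which act by binding other proteins, annexins among them. Anxa2 forms a heterotetramer with S100a10, also known as p11, and Anxa1 can form one with S100a11. In the liver several of these genes are known mainly from cells other than resting hepatocytes, such as macrophages, cholangiocytes and activated stellate cells.

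The promoters of the 3 members with the largest increases at 48 hours after PHx are shown first, from RefSeq (GRCm38.p6). Each sequence is the 200 bases before the RefSeq transcription start, written 5′ to 3′ on the strand of the gene, S100a11 from chr3:93520296-93520495 on the plus strand, Anxa2 from chr9:69453483-69453682 on the plus strand and Anxa5 from chr3:36475888-36476087 on the minus strand. Capitals mark the letters of 4 motifs searched on both strands, TGANTCA (the letters bound by AP-1 factors), GGAATG (TEAD), GGGCGG (the GC box) and TATAAA (the TATA box).
S100a11: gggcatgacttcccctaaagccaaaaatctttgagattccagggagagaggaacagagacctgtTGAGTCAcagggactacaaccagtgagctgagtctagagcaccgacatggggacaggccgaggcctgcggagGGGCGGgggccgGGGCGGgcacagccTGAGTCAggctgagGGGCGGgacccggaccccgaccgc
Anxa2: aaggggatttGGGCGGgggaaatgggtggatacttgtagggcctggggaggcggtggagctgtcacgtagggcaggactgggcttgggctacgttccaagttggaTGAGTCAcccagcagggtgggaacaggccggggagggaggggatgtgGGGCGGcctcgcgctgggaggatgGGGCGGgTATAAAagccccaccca
Anxa5: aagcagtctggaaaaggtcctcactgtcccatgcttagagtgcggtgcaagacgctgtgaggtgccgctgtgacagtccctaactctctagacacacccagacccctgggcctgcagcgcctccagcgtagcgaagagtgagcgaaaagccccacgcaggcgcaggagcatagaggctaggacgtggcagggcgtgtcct

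Windows of 300 bases, 250 before to 50 after the start, were found for 7 of the 10 members, with none for Anxa3, Anxa6 and S100a10. TGANTCA was present in the windows of S100a11 and Anxa2. In S100a11 it began 136 and 38 bases before the start, and in Anxa2 it began 95 bases before the start. Of all 32851 promoter windows of this length, 7.81% held these letters. GGGCGG was found 3 times each in S100a11 and Anxa2 and also in Anxa7, against 35.7% of all windows. TATAAA was found in Anxa1, Anxa2 and S100a4, against 13.6% of all windows, and GGAATG only in Anxa1 among the 7, against 14.7%. No match overlapped another. The window of Anxa5 held none of the 4 motifs, and it held 16 CG pairs, against 15 in S100a11, 13 in Anxa2 and a median of 7 over all windows (quartiles 3 and 20). A match of letters is a description of the window and no measurement of a factor at it.

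At 48 hours after PHx, transcripts of 5 of the 10 members were higher than in undamaged liver, and none was lower. S100a11 rose most, 11.4-fold, followed by Anxa2 (4.69-fold), Anxa5 (2.24-fold), S100a10 (1.75-fold) and Anxa7 (1.71-fold). Anxa6, the most abundant annexin of the 10 at 0 h, and the scarce Anxa1 and Anxa3 did not pass the test, and S100a4 and S100a6 were at or next to 0 counts. A gene was tested when 3 or more libraries gave it 10 or more counts, which took in 8 members and 17037 genes in all. Levels are given as CPM, the count per 1000000 counts of the library after TMM scaling, and differences as log2 fold changes, 48 h over 0 h. With edgeR and a threshold of 0.05 on the adjusted p, 5 members were called higher, beside 21.4% of all tested genes called higher. No member was called lower, beside 19.3% of all tested genes, and the count was 0 also at an unadjusted p under 0.05 and with DESeq2 and limma-voom. Of the members called higher, 3 reached a log2 fold change of 1, beside 9.69% of all tested genes. In 5 tested members all 3 libraries of 48 h lay above all 3 of 0 h, which was the case for 27.8% of all tested genes. The median log2 fold change was 0.79 over the 8 tested members and -0.003 over all genes tested.

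**Figure D1:**
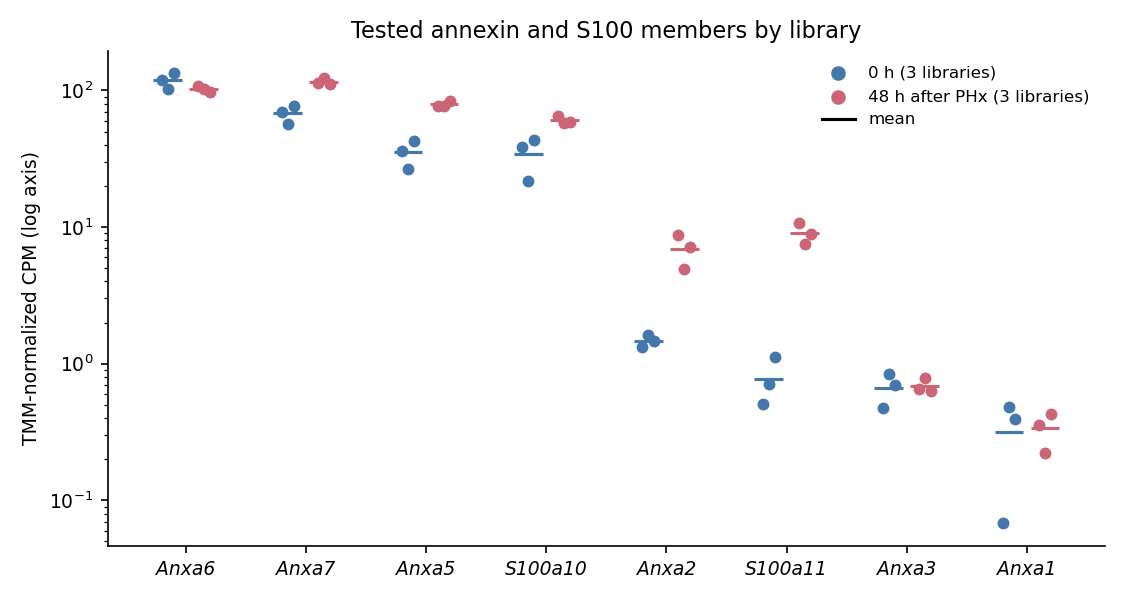
Level of each of the 8 tested members in every library, as CPM on a log axis, with 1 point per library and a bar at the mean of each time point. The points of 48 h lie above all points of 0 h for S100a11, Anxa2, Anxa5, S100a10 and Anxa7, and the points of Anxa1, Anxa3 and Anxa6 overlap.

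S100a11 (ENSMUSG00000027907.4, chr3:93520488-93526287, plus strand, GRCm38), an S100 protein that binds the N-terminal part of Anxa1, had 15, 22 and 37 counts in replicates 1 to 3 of 0 h and 362, 267 and 310 counts in those of 48 h. After TMM scaling these were 0.511, 0.709 and 1.11 CPM at 0 h and 10.8, 7.47 and 8.85 CPM at 48 h. The lowest library of 48 h was thus well above the highest of 0 h, and the spread within 48 h was smaller in proportion than that within 0 h. The log2 fold change was 3.52 (standard error 0.271, 95% interval 2.92 to 4.12, adjusted p = 4.83e-06), and 1.85% of the tested genes had a larger one. Per kb of exon, the transcript passed from above 44.1% of the tested genes at 0 h to above 89.9% at 48 h. The gene has 5 closely similar processed pseudogenes, whose reads could be shared with it. None of these had more than 7 counts in a library, and the closest, Gm12854, is 98.99% identical over 297 bases. Multiply aligned reads are listed at 0, so these low counts do not show whether shared reads were lost from S100a11.

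Anxa2 (ENSMUSG00000032231.14, chr9:69453620-69491795, plus strand), the annexin that links membranes to actin and binds plasminogen activator at the cell surface, had 39, 50 and 49 counts at 0 h and 293, 177 and 250 counts at 48 h. These were 1.33, 1.61 and 1.48 CPM at 0 h and 8.70, 4.95 and 7.14 CPM at 48 h. The libraries of 0 h lay close together, and replicate 2 was the lowest of 48 h but still stood far above them. The log2 fold change was 2.23 (standard error 0.238, 95% interval 1.70 to 2.76, adjusted p = 4.88e-05), and 3.54% of the tested genes had a larger one. An opposite-strand gene, Gm16144, overlaps 2.63% of its exon bases, and whether counting used strand is not stated.

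S100a10 (ENSMUSG00000041959.14, chr3:93555080-93564643, plus strand), the S100 partner of Anxa2, which has lost the ability to bind calcium, was already abundant in undamaged liver. Its counts were 1124, 670 and 1449 at 0 h and 2183, 2058 and 2057 at 48 h, or 38.3, 21.6 and 43.6 CPM against 64.8, 57.6 and 58.8 CPM. Replicate 2 of 0 h was low, so the 0 h libraries spanned 2.02-fold, while the 48 h libraries lay within 1.13-fold of each other and above all of them. The log2 fold change was 0.81 (standard error 0.209, 95% interval 0.34 to 1.27, adjusted p = 0.0112). Without replicate 2 of 0 h it was 0.55 with an adjusted p of 0.00332, and over all alternatives tried the adjusted p was at most 0.0288.

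**Figure D2:**
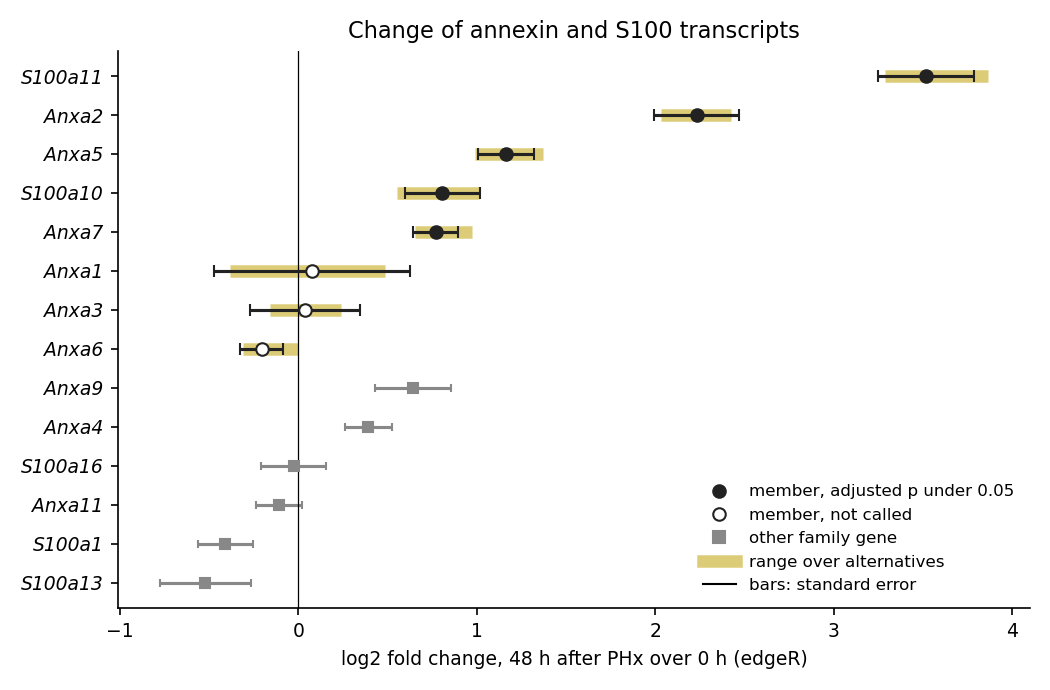
Log2 fold change of each tested member and of the other tested annexin and S100 genes, 48 hours after PHx over 0 h, with points at the edgeR estimate, thin bars of 1 standard error and, for members, broad bars for the range over the alternative settings. S100a11 at 3.52 and Anxa2 at 2.23 lie farthest to the right, and S100a1 and S100a13 lie left of 0 without passing the test.

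The annexins with intermediate or high levels in undamaged liver were Anxa5, Anxa6 and Anxa7. Anxa5 (ENSMUSG00000027712.13, chr3:36448923-36475894, minus strand), which binds exposed phosphatidylserine and forms lattices on membranes, was at 36.0, 26.7 and 42.9 CPM at 0 h and at 76.7, 76.2 and 83.8 CPM at 48 h. No library overlapped, and the 48 h libraries were closer to each other than those of 0 h. Its log2 fold change was 1.17 (standard error 0.156, 95% interval 0.82 to 1.51, adjusted p = 0.000219). Anxa7 (ENSMUSG00000021814.17, chr14:20455260-20480133, minus strand), which has been studied in exocytosis and membrane fusion, was at 69.2, 57.2 and 77.0 CPM at 0 h and at 113.7, 122.6 and 110.9 CPM at 48 h. All 48 h libraries again stood above all 0 h libraries, by a log2 fold change of 0.77 (standard error 0.126, 95% interval 0.49 to 1.05, adjusted p = 0.000801).

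Anxa6 (ENSMUSG00000018340.13, chr11:54979108-55033445, minus strand), the annexin with a duplicated core, was at 119.3, 102.7 and 133.5 CPM at 0 h and at 108.4, 103.0 and 96.9 CPM at 48 h. The time points overlapped, and the log2 fold change was -0.21 (standard error 0.122, 95% interval -0.48 to 0.07, adjusted p = 0.207). Without replicate 2 of 0 h, the lowest of its group, the value was -0.31 with an adjusted p of 0.0453, so that 1 library decided whether Anxa6 passed the threshold. The interval leaves room for a modest decrease but not for a rise of the size seen in Anxa7.

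Anxa1 (ENSMUSG00000024659.15, chr19:20373428-20390944, minus strand), known as a mediator of the anti-inflammatory action of glucocorticoids, had 2, 15 and 13 counts at 0 h and 12, 8 and 15 counts at 48 h. Anxa3 (ENSMUSG00000029484.12, chr5:96793339-96845966, plus strand), reported in hepatocyte growth and in liver progenitors, had 14, 26 and 23 counts at 0 h and 22, 28 and 22 counts at 48 h. Both were thus below 1 CPM in every library, and their time points overlapped. The log2 fold change was 0.08 for Anxa1 (standard error 0.550, 95% interval -1.15 to 1.30, adjusted p = 0.925) and 0.04 for Anxa3 (standard error 0.310, 95% interval -0.65 to 0.73, adjusted p = 0.934). The sign of each turned under other settings. At these counts a change of Anxa1 of up to about the size of that in Anxa5 could not be told from none.

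S100a4 (ENSMUSG00000001020.8, chr3:90603771-90606045, plus strand), a marker often used for motile and mesenchymal cells, had 0 counts in all 6 libraries. S100a6 (ENSMUSG00000001025.8, chr3:90612882-90624181, plus strand), also called calcyclin, had 0 counts in 5 libraries and 1 count in replicate 3 of 48 h. A count of 0 allows up to 3 counts, which in these libraries is 0.0839 to 0.102 CPM and covers counting error only. Neither gene was tested, and no fold is given. The exons of S100a4 share 51.7% of their bases with Gm42674, a gene model on the same strand that also had 0 counts, so reads in the shared part could have been left out as ambiguous. No gene overlaps the exons of S100a6.

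**Figure D3:**
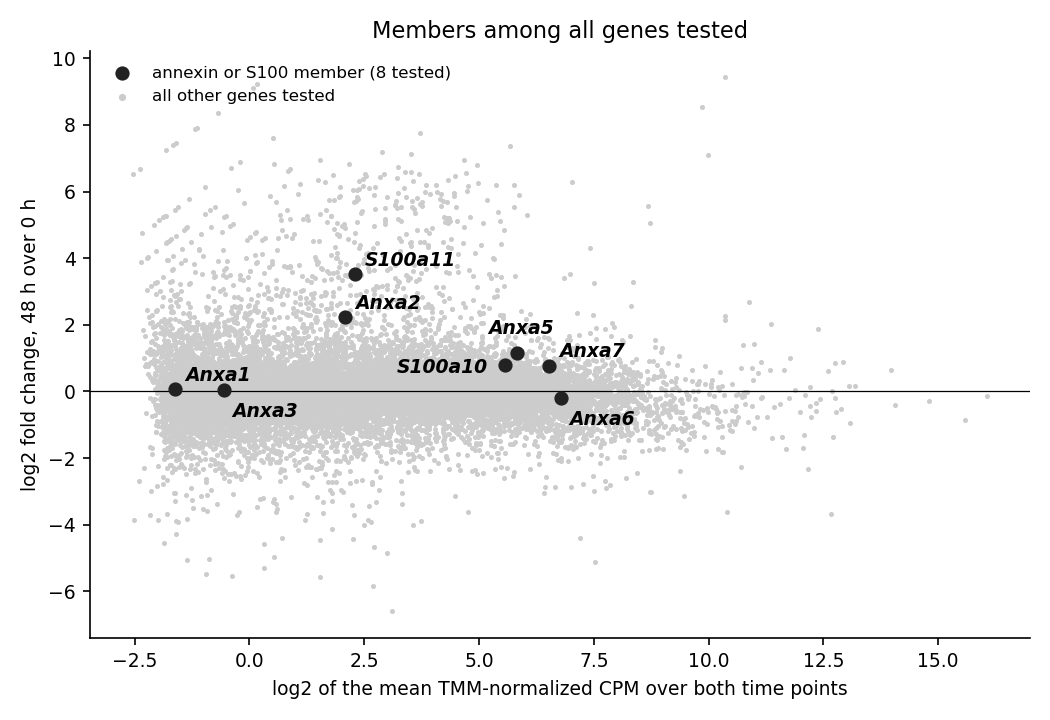
Log2 fold change, 48 hours after PHx over 0 h, against log2 of the mean CPM over both time points, with 1 point per tested gene and the 8 tested members in black. S100a11 and Anxa2 combine low to middle levels with large fold changes, and Anxa5, Anxa7 and S100a10 sit among the more abundant genes with smaller ones.

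Levels of different genes can be compared only per length, so CPM was divided by the kb of exon of each gene, counted over all its annotated transcripts. In undamaged liver the members ranked in the order Anxa6 (40.5 ± 5.27 CPM per kb, SD, n = 3), S100a10 (28.5 ± 9.49), Anxa5 (19.8 ± 4.59), Anxa7 (11.3 ± 1.67), S100a11 (1.52 ± 0.602), Anxa2 (0.394 ± 0.0380), Anxa3 (0.184 ± 0.0499) and Anxa1 (0.108 ± 0.0749). The libraries of Anxa6 and S100a10 overlapped, as did those of S100a10 and Anxa5 and those of Anxa3 and Anxa1. At 48 hours after PHx the order was S100a10 (49.8 ± 3.21 CPM per kb, SD, n = 3), Anxa5 (44.4 ± 2.39), Anxa6 (35.1 ± 1.97), Anxa7 (19.3 ± 1.02), S100a11 (17.7 ± 3.22), Anxa2 (1.86 ± 0.505), Anxa3 (0.189 ± 0.0228) and Anxa1 (0.116 ± 0.0357). Neighbours in the upper part of this order did not overlap, except for Anxa7 and S100a11. By this measure S100a11 moved from well below Anxa7 at 0 h to overlap with it at 48 h. The length used was 5991 bases for Anxa7 and 511 for S100a11, so the overlap depends on the exons counted. The share of each library's gene counts that fell on the 10 members was 0.0241% ± 0.00373 in undamaged liver and 0.0402% ± 0.000952 after PHx (SD, n = 3).

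**Figure D4:**
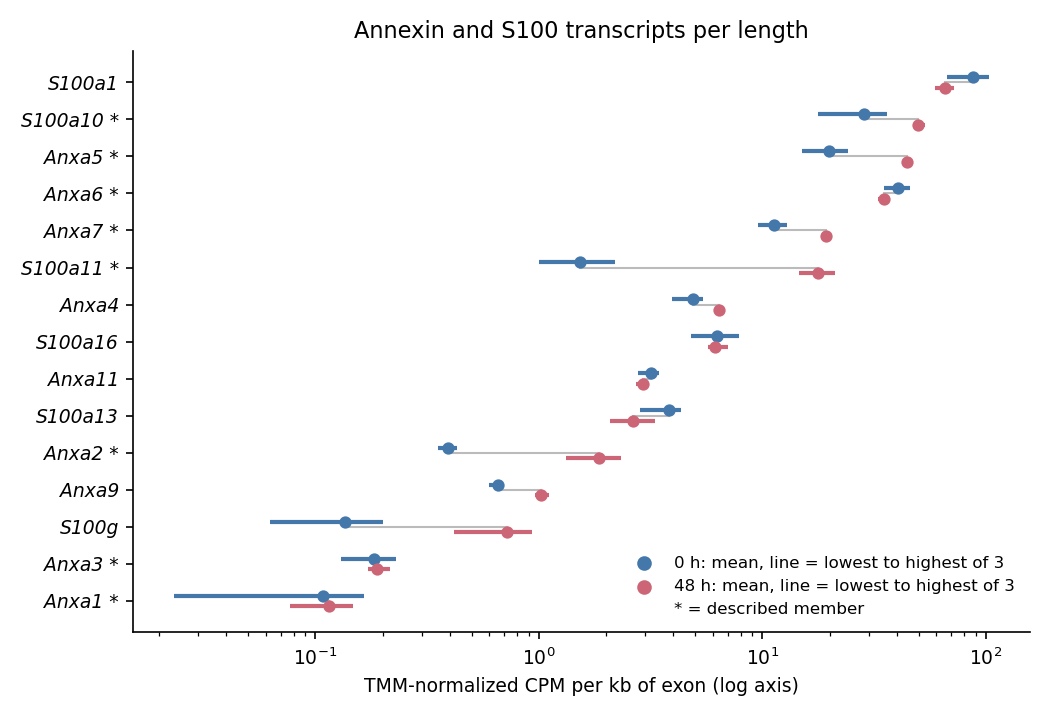
CPM per kb of exon on a log axis for members (marked with an asterisk) and the other annexin and S100 genes with more than 3 counts in some library, with a point at the mean of each time point and a line from its lowest to its highest library. S100a1, which is not a member, is highest at both time points, and S100a11 shows the widest gap between the time points among members.

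The known partners did not move in proportion. Within each library the log2 ratio of S100a10 to Anxa2, in counts per kb of exon, was 6.47, 5.37 and 6.51 at 0 h and 4.52, 5.16 and 4.66 at 48 h. All 48 h libraries lay below all 0 h libraries, with means of 6.12 ± 0.649 and 4.78 ± 0.337 (SD, n = 3) and a difference of -1.33 (exact permutation test, two-sided, p = 0.1, which is the smallest p that this design can give). S100a10 transcripts therefore remained far in excess of Anxa2 transcripts at both time points. The log2 ratio of S100a11 to Anxa1 was 5.42, 3.06 and 4.02 at 0 h and 7.43, 7.57 and 6.88 at 48 h. Here the 48 h libraries lay above those of 0 h, by 3.13 between the means (exact permutation test, two-sided, p = 0.1), and the values of 0 h rest on as few as 2 counts of Anxa1. The difference was 3.75 without replicate 1 of 0 h, the library with those 2 counts, and 2.57 without replicate 2 of 0 h. These ratios do not depend on the scaling between libraries.

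The 7387 protein-coding genes with a mean of 10 CPM or more were compared with Anxa2 and S100a10 by the root mean square difference of centred log2 CPM over the 6 libraries, where a small value means a like pattern. The closest to Anxa2 were Steap4 (0.106) and Cyb561 (0.168), whereas S100a10 stood at 0.769, at rank 667. The closest to S100a10 were Elob (0.104), 1110008P14Rik (0.106) and Ppif (0.106), and among the members Anxa7 (0.211) and Anxa5 (0.216) were nearest to it. Seen from S100a10, Anxa2 stood at rank 6013. Anxa2 and S100a10 were thus each closer to many other genes than to one another. The measure takes in the size of the log2 fold change (2.23 for Anxa2, 0.81 for S100a10), so it is not separate from the values given above.

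Most S100 genes lie in a stretch of chromosome 3, and S100a11 and S100a10 lie apart from it. In these data the 11 S100 genes between 90511034 and 90695721 held 3 tested genes, S100a1, S100a13 and S100a16, of which 0 were called in either direction with edgeR, DESeq2 or limma-voom and 1, S100a1, had an unadjusted p under 0.05. Without replicate 2 of 0 h, 2 of them were called lower. S100a11 and S100a10 lie 28.8 kb from each other and 2824.8 kb beyond the rest, and both were called higher. S100a1, a calcium sensor best known from muscle, was at 60.6 ± 13.04 CPM at 0 h and 45.7 ± 4.40 CPM at 48 h (SD, n = 3; log2 fold change -0.41, adjusted p = 0.0573). S100a13 (log2 fold change -0.52, adjusted p = 0.128) and S100a16 (-0.03, adjusted p = 0.92) did not pass either. S100g, which lies on another chromosome and was not tested, had 2, 3 and 1 counts at 0 h and 13, 16 and 7 counts at 48 h. The other 8 genes of the 12 in the list of other S100 genes had at most 3 counts in any library, the neutrophil genes S100a8 and S100a9 among them.

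Among the 6 other annexins, 3 were tested, 2 were higher and 0 lower, with a median log2 fold change of 0.39. Anxa4, an annexin of epithelia, rose from 22.8 ± 3.81 to 29.9 ± 1.04 CPM (SD, n = 3; log2 fold change 0.39, adjusted p = 0.0352), and Anxa9 rose from 1.36 ± 0.109 to 2.12 ± 0.152 CPM (0.64, adjusted p = 0.0338). Both calls were near the threshold, and 1 of them was left without any 1 library of 0 h and 0 without any 1 library of 48 h. Anxa11 was at 13.1 ± 1.41 and 12.1 ± 0.854 CPM (SD, n = 3) and did not pass (log2 fold change -0.11).

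The genes that surround annexins and S100 proteins were taken from fixed lists. Of 15 genes of membrane repair and calcium-dependent partners, 14 were tested, 5 were higher and 1 was lower, with a median log2 fold change of 0.24. Ahnak, a giant scaffold protein that binds the Anxa2 and S100a10 complex, rose from between 14.15 and 16.34 CPM to between 24.05 and 37.18 CPM (log2 fold change 0.97, adjusted p = 0.000729). The penta-EF-hand proteins Gca (0.84, adjusted p = 0.00167) and Pef1 (0.69, adjusted p = 0.00401) rose, as did Tsg101 (0.41) and Chmp4b (0.37) of the membrane-cutting ESCRT machinery. Capn1, a calcium-activated protease, was lower by a narrow margin (log2 fold change -0.34, adjusted p = 0.0499), a call that was lost with library size scaling, DESeq2 and limma-voom and without any 1 library other than replicate 2 of 0 h. The number higher was 3 without replicate 2 of 0 h or replicate 2 or 3 of 48 h.

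Of 6 known protein targets of S100 proteins, all tested, 3 were higher and 1 was lower, with a median log2 fold change of 0.44. The nonmuscle myosin heavy chains went in both directions. Myh9, which S100a4 binds, rose from 306.9 ± 10.4 to 578.5 ± 29.0 CPM (SD, n = 3; log2 fold change 0.92, adjusted p = 0.000187), and Myh10 rose by a log2 fold change of 1.16 (adjusted p = 3.55e-05). Myh14 fell from 33.0 ± 4.28 to 13.6 ± 0.762 CPM (SD, n = 3; log2 fold change -1.28, adjusted p = 2.58e-05). Cacybp, a binding protein of S100a6, rose (0.59, adjusted p = 0.00958), while S100a6 itself was at or next to 0 counts.

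Of 20 genes of the actin cortex, 19 were tested, 9 were higher and 2 were lower, with a median log2 fold change of 0.63. Tagln2, an actin-binding protein, rose from 3.43 ± 0.572 to 29.9 ± 10.4 CPM (SD, n = 3; log2 fold change 3.12, adjusted p = 5.42e-06), a change near that of S100a11. Tpm4 (1.53, adjusted p = 2.07e-05), a tropomyosin, and Ezr (1.30, adjusted p = 0.000609), which ties actin to the membrane, rose as well. Rdx (-0.40, adjusted p = 0.0209), a close relative of Ezr, and Vcl (-0.35, adjusted p = 0.0261) fell, though 0 genes were lower with library size scaling and without replicate 3 of 0 h or replicate 1 of 48 h, and 1 without replicate 1 of 0 h or replicate 2 of 48 h.

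Anxa2 and S100a10 act in plasminogen activation at the cell surface, and of the genes listed for that system 2 were lower. Plg, plasminogen itself (log2 fold change -0.48, adjusted p = 0.0201), and Serpinf2, the inhibitor of plasmin (-0.46, adjusted p = 0.0174), fell, though 0 genes were lower with library size scaling and without replicate 3 of 0 h or replicate 2 or 3 of 48 h. Plaur, the urokinase receptor, was below 1 CPM in every library and did not pass (0.94, adjusted p = 0.0879). Of 6 receptors for annexin or S100 ligands, 4 were tested and 0 passed the test in either direction (edgeR, with 0 at an unadjusted p under 0.05 and 0 with DESeq2 or limma-voom). Fpr1, a receptor for Anxa1, was at 0.529 ± 0.216 and 0.585 ± 0.134 CPM, and Bsg was at 218.8 ± 21.6 and 234.8 ± 21.3 CPM (SD, n = 3). The 95% interval of the log2 fold change was -0.180 to 0.383 for Bsg. It was -0.693 to 0.967 for Fpr1, -0.640 to 0.888 for Ager and -0.735 to 1.010 for Tlr4, which leaves room for sizeable changes in these scarce transcripts.

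In bulk libraries a change in the number of cells of a type and a change in RNA per cell cannot be told apart. Marker lists of other liver cells were therefore measured in the same libraries, as their summed CPM. The 20 hepatocyte markers, which include Alb and the apolipoproteins, summed to between 142100 and 162500 CPM at 0 h and between 100700 and 132100 CPM at 48 h, without overlap, and 2 of them were higher and 7 lower. Hepatocyte markers had the largest sum of the lists in every library. The 14 macrophage markers summed to between 94.0 and 140.0 CPM at 0 h and between 126.8 and 158.7 CPM at 48 h, with 3 higher, 1 lower and all 14 tested. Marco (log2 fold change 3.19), Cd5l (0.78) and Cd68 (0.70) rose, Lyz2 fell by 0.74 on the log2 scale, and Clec4f was at 15.3 and 14.2 CPM on average. The 12 stellate cell and fibroblast markers summed to between 77.3 and 125.7 CPM at 0 h and between 74.4 and 88.9 CPM at 48 h, with Eln (2.84) and Col1a1 (2.30) higher and Reln (-0.82) lower among 11 tested.

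**Figure D5:**
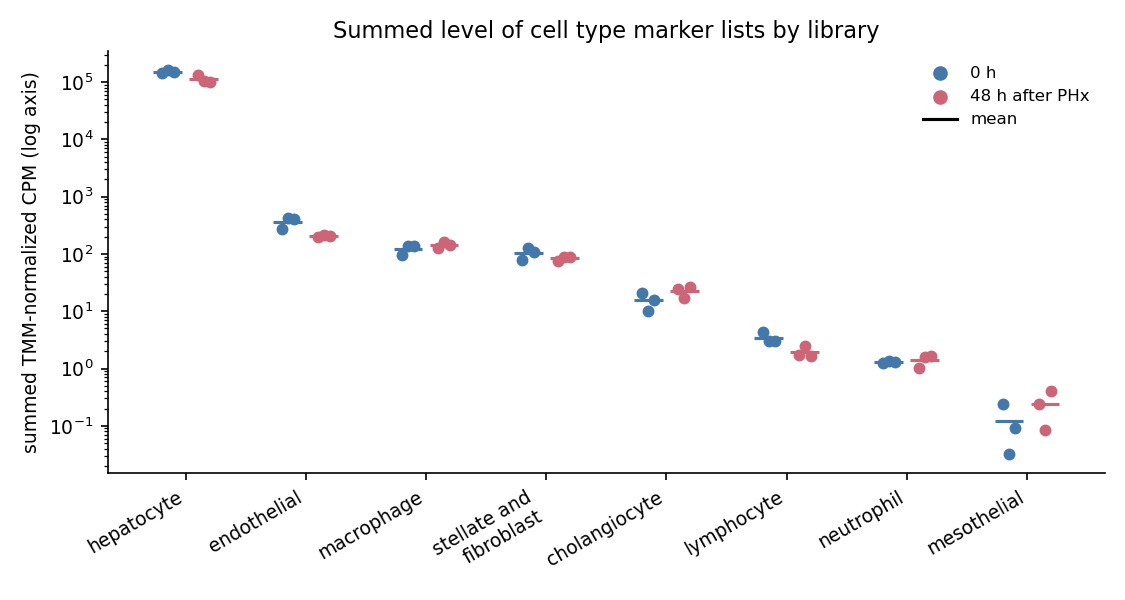
Summed CPM of each cell type marker list on a log axis, with 1 point per library and a bar at the mean of each time point. The endothelial list is lower in every library of 48 h than in any of 0 h, the neutrophil and mesothelial lists stay below 2 CPM, and the macrophage list overlaps between time points.

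Cholangiocyte markers, 9 in all, summed to between 9.93 and 21.1 CPM at 0 h and between 16.8 and 26.6 CPM at 48 h, with Spp1 higher (log2 fold change 1.51) among 3 tested. The defining markers Krt7, Epcam, Tspan8 and Cftr had at most 3 counts in any library. The 12 endothelial markers fell from between 274.2 and 417.4 CPM to between 194.9 and 217.3 CPM, and 11 of them were lower. Neutrophil markers, 11 in all, summed to between 1.26 and 1.35 CPM at 0 h and between 1.04 and 1.66 CPM at 48 h, with Mpo, Ltf and Retnlg at 0 counts in all 6 libraries and Csf3r, the 1 gene tested, lower (log2 fold change -1.15, adjusted p = 0.0106). Among those too low to be tested, Camp had 2, 3 and 0 counts at 0 h and 6, 19 and 26 counts at 48 h, and Elane had 5, 1 and 3 counts at 0 h and 13, 16 and 8 counts at 48 h, without overlap between the time points in either. The 12 lymphocyte markers summed to between 2.97 and 4.29 CPM and to between 1.63 and 2.43 CPM, with Cd3d at 0 counts in all libraries and Cd4, the 1 gene tested, lower (log2 fold change -0.99). The 6 mesothelial markers stayed at or below 0.400 CPM in sum. Of these, 0 were tested and 4 had at most 3 counts in any library, so differences in their sum rest on few counts. The lists of macrophages, cholangiocytes, neutrophils and mesothelial cells had a higher mean sum at 48 h, as the called members did, with overlap between the time points in each. The stellate cell and fibroblast list had a lower mean sum at 48 h, but 2 of its genes, Eln and Col1a1, were higher and 1, Reln, was lower. On the log2 scale the difference in the macrophage sum was 0.22 and fell to 0.03 without replicate 1 of 0 h, and as libraries were left out in turn it ranged from 0.29 to 0.83 for cholangiocytes, from 0.45 to 1.89 for mesothelial cells and from -0.03 to 0.31 for neutrophils. The part of these lists in the rise of S100a11, Anxa2, Anxa5, S100a10 and Anxa7 was not tested.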

How the data were processed

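Bulk RNA-Seq of hepatocytes from undamaged liver and from liver 48 hours after PHx was analysed in 3 libraries per time point, grouped by their labels. The authors deposited raw counts of reads per gene in htseq-count layout, without normalization. The submitters' processing notes name FastQC 0.11.5, Trim Galore 0.6.4, STAR 2.6, HTSeq 0.12.4, DESeq2 and mm10; their settings, the counting mode and strand are not given in the sources used here. Lines for reads outside genes (24.3% to 32.7% of reads per library) or on more than one gene (4.27% to 5.29%) were left out. Multiply aligned reads are listed at 0.

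The 10 members and all other lists were chosen with earlier results of these data known. Other genes of a list were named where the adjusted p was under 0.05 and the mean at least 1 CPM, up to 3 in each direction by size of change. Further genes (Tsg101, Chmp4b, markers beyond 4 a list and genes that did not pass) were chosen after their values were seen. A few items that this rule covers, and counts that rest on them, are left out. Time points were compared with edgeR 4.0.16 in R 4.3.3 (TMM, quasi-likelihood test, no term but time) over the 17037 genes to which 3 or more libraries gave 10 or more counts, with Benjamini-Hochberg adjustment over all of them and a threshold of 0.05. Standard errors are the log2 fold change divided by the root of the F statistic. TMM factors were 0.914 to 0.950 at 0 h and 1.02 to 1.11 at 48 h. Libraries of a time point differed by more than counting noise (mean chi-square per gene 25.8 to 76.1). Counts carry no molecular identifiers. The test was tried on simulated data first. Alternatives were other normalizations and filters, DESeq2 1.42.0, limma-voom (limma 3.58.1), a fold threshold, the replicate number as a block and leaving out each library. Promoter sequences are from RefSeq, GRCm38.p6.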

Additional observations from a re-analysis of the deposited data

How the results depend on the processing

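Of the 5 members called higher, all kept their direction and their call in each of 15 settings besides the fold threshold, and S100a11 (3.29 to 3.87), Anxa2 (2.03 to 2.43) and Anxa5 (0.99 to 1.37) kept them in all 16. With a log2 fold change of at least 1 required, Anxa7 (0.77) and S100a10 (0.81) no longer passed, 3 members were higher, and 1651 genes were higher and 1353 lower. The value of S100a10 ranged from 0.55 to 1.01 and that of Anxa7 from 0.65 to 0.98. Anxa6 ranged from -0.31 to -0.004 (-0.31 to -0.12 as libraries were left out) and passed the test (adjusted p = 0.0453) only without replicate 2 of 0 h, which gives 0 to 1 members lower when each library is left out in turn. Anxa1 turned negative with upper quartile factors (-0.011) and ranged from -0.39 to 0.49 as libraries were left out, with -0.39 without replicate 1 of 0 h and -0.13 without replicate 3 of 48 h. Anxa3 turned negative with upper quartile factors (-0.049) and with TMM from protein-coding genes (-0.017), and ranged from -0.16 to 0.22 as libraries were left out, with -0.16 without replicate 1 of 0 h and -0.07 without replicate 2 of 48 h. The summed neutrophil markers, 48 h minus 0 h on the log2 scale, turned to -5.49e-05 and -0.0277 without replicate 2 or 3 of 48 h, and ranged up to 0.309. The cause of these turns was not tested.

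Scaling by library size only moved the median log2 fold change of all genes to 0.20, left 2110 genes lower and raised the share of calls that were higher from 52.5% to 71.6%, and it left 8 membrane repair genes higher and 0 lower, 0 plasminogen genes lower, and 0 cortical actin genes lower. Upper quartile factors gave a share of 44.5%, with 0 other annexins higher, 1 other S100 gene lower, 3 membrane repair genes higher and 2 S100 targets lower. TMM from protein-coding genes gave 1 other annexin higher and 1 other S100 gene lower, and without a count filter there was 1 other annexin higher, 1 other S100 gene higher and 1 lower. The filter at 1 CPM gave 1 other S100 gene lower, DESeq2 gave 1 other annexin higher and 0 membrane repair genes lower, and limma-voom gave 0 membrane repair genes lower. The fold threshold left 0 other annexins higher, 0 membrane repair genes higher and 0 lower, 1 S100 target higher, 0 plasminogen genes lower, and 3 cortical actin genes higher and 0 lower. As each library was left out in turn, other annexins higher ranged from 0 to 1, other S100 genes lower from 0 to 2, membrane repair genes higher from 3 to 6 and lower from 0 to 1, plasminogen genes lower from 0 to 2, and cortical actin genes lower from 0 to 3.

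The libraries that share a number come from different mice, and their deviations from the group means correlated at 0.0335, -0.0674 and -0.138 over 17037 genes, with not every library closest to its own number. With the replicate block, 5 members were higher, and the values were 3.53 for S100a11, 2.20 for Anxa2, 1.19 for Anxa5, 0.86 for S100a10 and 0.78 for Anxa7, while 0 other annexins were higher and 0 membrane repair and 0 plasminogen genes were lower. Depth limits what can be told of Anxa1 and Anxa3.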
